A study of Arabidopsis thaliana with 12 samples.

Results

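In seedlings of Arabidopsis thaliana, 86 nuclear genes had low transcript levels in h2a.z, a mutant line with reduced transcripts of the histone variant H2A.Z, but levels near or above the wild type Col when a knockdown of histone H3.3 was added to that mutant (h3.3kd;h2a.z, called the double mutant here). They were chosen from group means of TPM, an abundance scaled for gene length and library total. With d as log2 of (group mean + 1) over (Col mean + 1), the rule took nuclear genes with a Col mean of at least 5 TPM, d in h2a.z of at most -0.8 and d in the double mutant above -0.3. Of 23739 nuclear genes in the table, 14407 reached the Col level of the rule (called eligible genes here), and 458 of these, 3.18%, had the required d in h2a.z. The 86 members are the part of those 458 that also passed in the double mutant, while 274 were at or below -0.8 in both lines and 98 lay between. Because the measured values chose the members, the levels of h2a.z, the double mutant and Col are given as a description without a test.

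RNA was sequenced from whole seedlings, 7 days old, kept at 21 °C in short days. Each of 4 genotypes has 3 libraries: the double mutant h3.3kd;h2a.z, h2a.z, h3.3kd (labelled as line h3.3kd-1) and Col. The alleles and the construct behind the knockdown were not given in the sources used here, nor whether more than 1 line stands for a genotype. Nothing says that the libraries of a genotype were grown separately, so the p-values speak only of spread among these 12 libraries. In whole seedlings, fewer cells of a type and less RNA per cell cannot be told apart.

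H2A.Z, a variant form of H2A, is placed in nucleosomes by the SWR1 remodelling complex, with a peak just after the transcription start of many genes and a wider spread over the bodies of inducible genes. H3.3 replaces canonical H3 without need of DNA replication, through chaperones such as the HIR complex, and is enriched over transcribed genes. In Arabidopsis, H2A.Z is known for its part in temperature responses, flowering and the silence or readiness of defence and stress genes.

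Transcripts of 3 H2A.Z and 3 H3.3 genes, taken here as the targeted genes, were set against the labels. Of the H2A.Z genes, HTA8 averaged 0.0331 TPM in the double mutant, 0.0746 in h2a.z, 8.47 in h3.3kd and 9.20 in Col. HTA11 averaged 1.69 TPM in the double mutant, 2.86 in h2a.z, 22.6 in h3.3kd and 24.4 in Col. HTA9 averaged 60.5 TPM in the double mutant, 32.8 in h2a.z, 126 in h3.3kd and 161 in Col, so its transcript was reduced but present in both H2A.Z mutant lines. The 3 H2A.Z genes summed to 57.4 to 70.0 TPM in double mutant libraries, 32.0 to 40.5 in h2a.z, 151 to 161 in h3.3kd and 187 to 204 in Col. More H2A.Z transcript thus remained in the double mutant than in h2a.z, and its part in the levels of the members was not tested. Of the H3.3 genes, HTR4 averaged 35.4 TPM in the double mutant, 350 in h2a.z, 36.2 in h3.3kd and 386 in Col, and HTR8 averaged 10.2, 176, 12.8 and 187 TPM in the same order. HTR5 averaged 186 TPM in the double mutant, 232 in h2a.z, 207 in h3.3kd and 250 in Col and was thus much less reduced. The table keeps no read totals, but the steps of low values give relative depth: 1 read weighed 3.85 times as much in h2a.z replicate 1 as in Col replicate 1, against 0.651 to 1.01 times in the other 11 libraries. Without that shallower library the rule took 94 genes, 79 of them among the 86.

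The members were moderate in level and most were reduced rather than silent. The median of their group means was 14.7 TPM in the double mutant, 4.27 in h2a.z, 14.4 in h3.3kd and 12.7 in Col. The h2a.z mean was below 10% of Col for 12 members, from 10 to 25% for 6, from 25 to 50% for 50, and 50% or more, up to 54.9%, for 18. No member had an h2a.z library that reached its lowest Col library, which the rule makes likely. Over all eligible genes, 24.6% had all h2a.z libraries below all Col libraries. In the double mutant the members sat at a median of 94.8% of Col, with a range of 79.4 to 267%. There, 31 had a d above 0, 11 of these above 0.3, and 21 lay between -0.3 and -0.2, close to the limit of the rule. The double mutant and Col libraries overlapped for 56 members, which the rule makes likely. The share of eligible genes with such an overlap was not counted, so the 56 cannot be set against it. The double mutant and h2a.z libraries overlapped for 2, AT1G54870 and OLEO2, while 16.2% of eligible genes had all double mutant libraries above all h2a.z libraries.

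The members were unevenly placed along the chromosomes, a property the rule did not use. Arabidopsis locus identifiers run in order along each chromosome, so AT1G02160 and AT1G02220 lie close together on chromosome 1. Chromosomes 1 to 5 held 33, 8, 7, 23 and 15 members. As shares of the 86 these are 38.4, 9.30, 8.14, 26.7 and 17.4%, beside 25.9, 15.2, 20.1, 15.3 and 23.5% of the eligible genes. Chromosomes 1 and 4 therefore held more of the members than of the eligible genes, and chromosomes 2, 3 and 5 held less. Chromosome 3 held 71 of the 274 genes that were low in both lines, against 7 of the 86 members.

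Within chromosomes, most members fell into 4 stretches. When each chromosome was divided into windows of 5 identifier prefixes, 33 of 63 windows held no member and 10 held 4 or more. The stretch from AT1G01 to AT1G19 held 26 members of 1165 eligible genes, or 2.23%. On chromosome 4, AT4G15 to AT4G24 held 15 of 580 (2.59%) and AT4G35 to AT4G39 held 7 of 327 (2.14%). On chromosome 5, AT5G50 to AT5G59 held 8 of 575 (1.39%). The window AT2G35 to AT2G39 also held 4 members, of 315 eligible genes (1.27%). It was not made a stretch and is counted with the remaining genes. Together the 4 stretches contained 18.4% of the eligible genes and 56 members, 65.1% of the set, while the remaining 11760 eligible genes held 30 members (0.255%). The bounds were read off the windows after the members were known, so these shares describe the set and test nothing. The same bounds held 51 of the 274 genes low in both lines (18.6%), close to the stretches' share of eligible genes. They held 71 of 296 genes with the opposite pattern (24.0%), which have an h2a.z mean of at least 5 TPM, d of at least 0.8 in h2a.z and d below 0.3 in the double mutant.

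**Figure D1:**
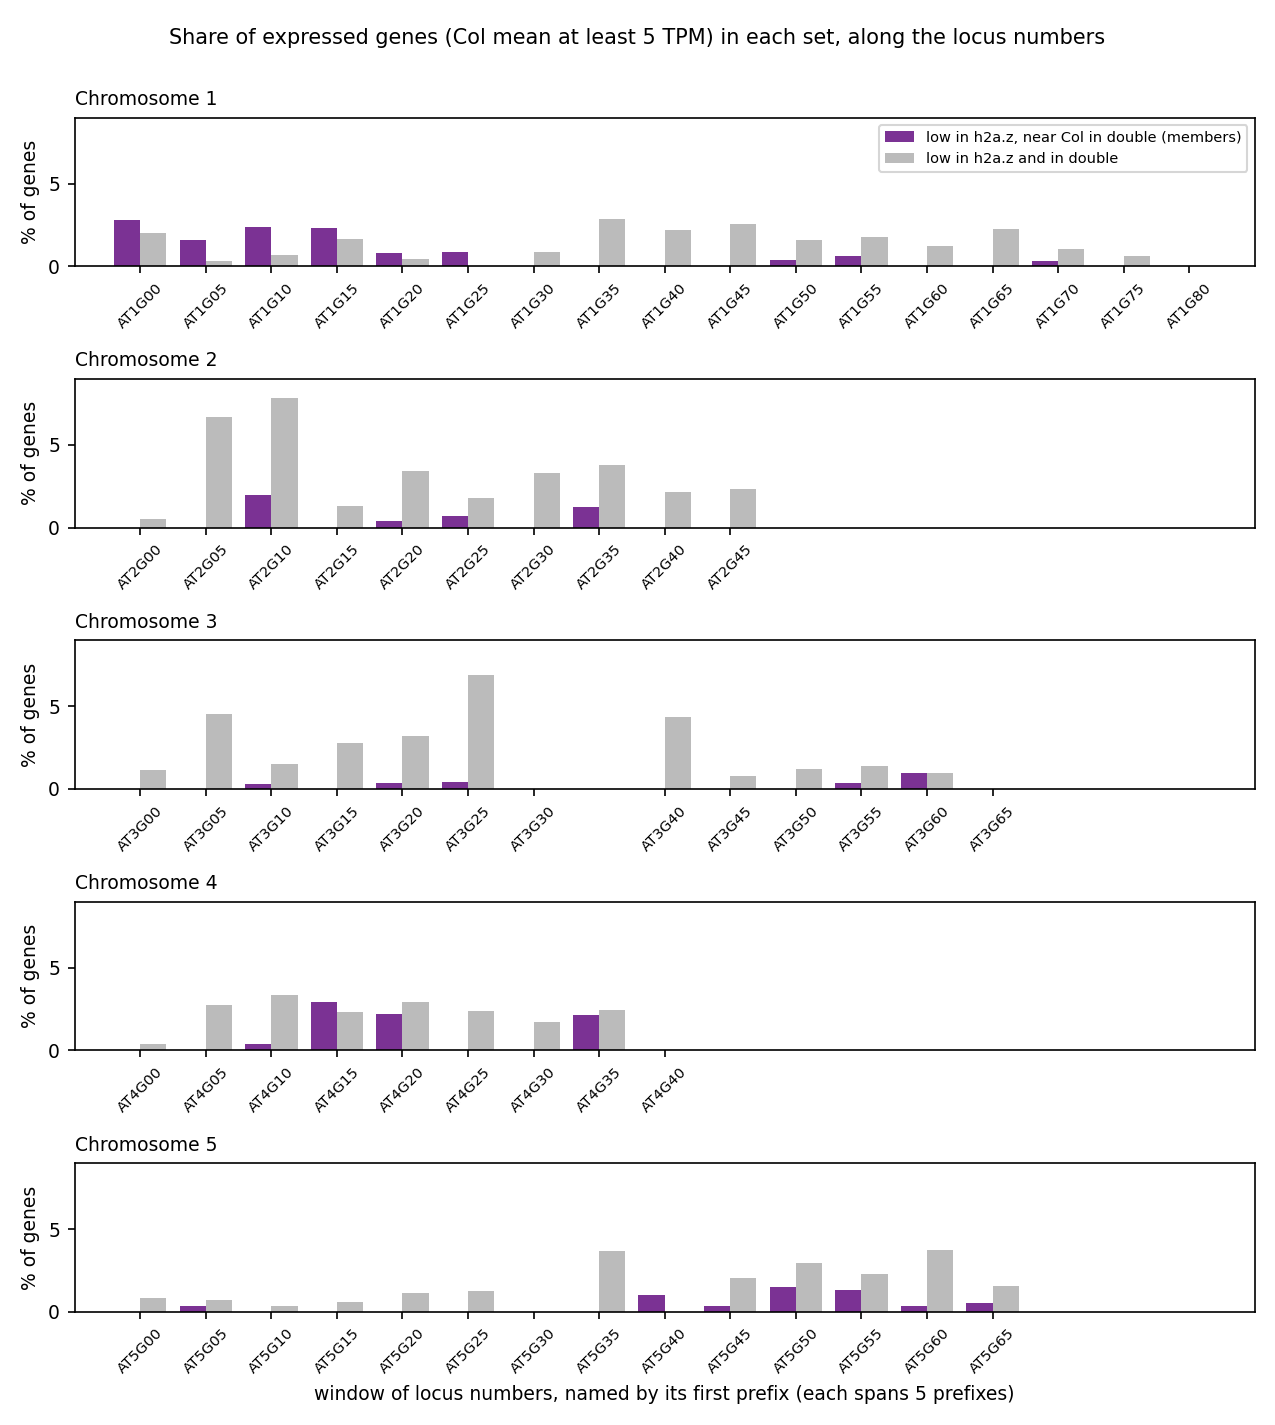
Percent of eligible genes (vertical axis) that are members (purple bars) or low in both h2a.z and the double mutant (grey bars), in windows of 5 locus prefixes along chromosomes 1 to 5 (horizontal axis, 1 panel per chromosome). Windows with fewer than 20 eligible genes have no bars, which hides 1 member, QQS. Purple bars gather at the start of chromosome 1 and in parts of chromosomes 4 and 5, while grey bars occur on all 5 chromosomes.

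Over all genes in the stretches that were not members, the median d was -0.06 in the double mutant and 0.03 in h2a.z, beside -0.08 in the double mutant and 0.04 in h2a.z for non-members elsewhere. Of the 98 genes low in h2a.z with a d between -0.8 and -0.3 in the double mutant, 41 (41.8%) lay in the stretches, which hold 18.4% of the eligible genes. The members in the stretches had a median d of -1.27 in h2a.z and -0.08 in h3.3kd. The 30 members elsewhere had a median d of -0.98 in h2a.z and 0.18 in h3.3kd. Members outside the stretches were thus, as a median, less reduced in h2a.z and slightly above Col in h3.3kd. Leaving out h2a.z replicate 1 gave 60 of 94 genes in the stretches.

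The members whose transcript nearly vanished in h2a.z were placed almost wholly in these stretches. Of the 12 members below 10% of Col, 11 lay there, all but QQS, beside 56 of all 86 members. The bounds were read off the members, these 12 included, so this count describes the set and tests nothing. Among the 274 genes low in both lines, 23 were below 10% of Col in h2a.z and 3 of those lay in the stretches. The 274 had no part in the bounds, so the 3 cannot be set against the 11. Of the 40 flanking eligible genes of the 12 that were not members themselves, up to 2 on each side, 33 (82.5%) stayed within 0.8 of Col in h2a.z on the d scale, 5 were at or below -0.8 and 2 at or above 0.8. The 5 low neighbours included SNC1 (-1.82) and AT4G16957 (-2.69) beside RPP5, and AT4G19520 (-0.81) and AT4G19530 (-1.14) beside AT4G19510.

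Immune receptor genes of the TIR-NBS-LRR class encode intracellular sensors of pathogen effectors and often sit in tandem clusters. RPP5 and AT4G19510 of this class, with the annotated receptor AT4G19500 beside the second, were 3 of the 4 lowest members in h2a.z. RPP5 (AT4G16950), a receptor gene named for resistance to downy mildew, had 25.3, 25.4 and 22.8 TPM in double mutant libraries, 0.352, 0.370 and 0.359 in h2a.z, 28.0, 27.2 and 27.6 in h3.3kd, and 31.4, 29.5 and 29.5 in Col. AT4G19510 had 16.0, 15.7 and 13.6 TPM in double mutant libraries, 0, 0.0661 and 0.173 in h2a.z, 14.4, 14.8 and 15.8 in h3.3kd, and 16.8, 16.1 and 14.9 in Col. Its neighbour AT4G19500, annotated with a nucleotide-binding receptor product, had 20.5, 18.0 and 16.7 TPM in double mutant libraries, was listed at 0 in all h2a.z libraries, and had 19.0, 21.0 and 21.2 TPM in h3.3kd and 25.1, 22.0 and 20.9 in Col. For all 3 genes, every h2a.z library was far below every other library, and the double mutant lay at 81.4% (RPP5), 94.6% (AT4G19510) and 81.4% (AT4G19500) of the Col mean. A search of annotated products for a few TIR and NBS-LRR wordings found 3 of the 86 members (3.49%), RPP5, AT4G19510 and TIR. It found 52 eligible genes (0.361%). Other wordings were missed, among them those of AT4G19500 and of AT1G72940, an eligible TIR domain gene. The 52 is thus too low, and these shares cannot be set against each other.

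Several genes around RPP5 were low in h2a.z as well but stayed further below Col in the double mutant, and so are not members. RPP4 averaged 15.2 TPM in the double mutant, 1.4 in h2a.z, 16.2 in h3.3kd and 24.6 in Col. AT4G16880, a leucine-rich repeat gene, averaged 37.6 TPM in the double mutant, was listed at 0 in all h2a.z libraries, and averaged 48.6 in h3.3kd and 65.5 in Col. SNC1, the receptor whose gain-of-function allele gives constitutive defence, averaged 49.6 TPM in the double mutant, 21.5 in h2a.z, 63.0 in h3.3kd and 78.5 in Col. The gene next to RPP5, AT4G16957, missed the set by a d of -0.31 in the double mutant and averaged 4.25 TPM there, 0.0122 in h2a.z, 3.68 in h3.3kd and 5.51 in Col. Other neighbours differed: AT4G16900, the eligible gene before RPP5, averaged 6.09 TPM in the double mutant, 9.81 in h2a.z, 6.05 in h3.3kd and 7.79 in Col. RLM3, on the other side, averaged 55.3 TPM in the double mutant, 37.4 in h2a.z, 60.6 in h3.3kd and 49.0 in Col. The neighbours of RPP5 thus ranged from nearly silent to above Col in h2a.z. After AT4G19510, AT4G19520 averaged 3.82 TPM in the double mutant, 4.85 in h2a.z, 4.89 in h3.3kd and 9.26 in Col. The next gene, AT4G19530, averaged 4.13 TPM in the double mutant, 2.52 in h2a.z, 7.84 in h3.3kd and 6.77 in Col, so it was low in h2a.z and between h2a.z and Col in the double mutant. Clustered receptor genes have near-identical copies that can share reads, so the separate values of these genes are uncertain.

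Across the list of 26 named immune receptors, 17 were eligible, 3 of these (RPP4, RPP5 and SNC1) had a d of at most -0.8 in h2a.z and RPP5 was the only member. The median d of the 17 was -0.37 in the double mutant, -0.15 in h2a.z and -0.27 in h3.3kd. Over all eligible genes, 3.18% had such a d in h2a.z and 0.597% were members, so 3 of 17 and 1 of 17 are above these shares. The 3 lie in 1 cluster of neighbours. Most of the 17 lacked the reduction in h2a.z, so the pattern was not a property of the receptor list as a whole. Among 23 listed receptors tested in h3.3kd against Col with limma (adjusted p below 0.05 over all 18851 genes tested), 12 were lower and 11 not called, beside 26.7% of all genes tested that were lower and 9.12% that were higher.

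A second run of nearly silent members was the adjacent pair AT1G12390 and AT1G12400 on chromosome 1. AT1G12390 belongs to the cornichon family, whose members in yeast and Drosophila carry cargo out of the endoplasmic reticulum. It had 21.9, 20.5 and 19.5 TPM in double mutant libraries, 0.869, 0.102 and 0.320 in h2a.z, 16.1, 15.9 and 17.04 in h3.3kd, and 14.6, 13.8 and 13.7 in Col. AT1G12400, the TTDA subunit of the transcription and repair factor TFIIH, had 10.4, 11.6 and 6.57 TPM in double mutant libraries, 0.697, 0.0816 and 0.171 in h2a.z, 13.7, 13.6 and 12.9 in h3.3kd, and 9.96, 10.5 and 9.98 in Col. Both were low in all h2a.z libraries, and AT1G12390 was above Col in every double mutant library. A nearby cornichon gene, AT1G12340, went the opposite way, with a mean of 0.433 TPM in the double mutant, 9.08 in h2a.z, 0.420 in h3.3kd and 0.929 in Col. The separate values of the related cornichon genes are uncertain where they share reads.

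The other nearly silent members had diverse products. AT5G51620, of an uncharacterised protein family, had 18.1, 18.7 and 16.7 TPM in double mutant libraries, was listed at 0 in all h2a.z libraries, and had 16.3, 14.1 and 13.5 TPM in h3.3kd and 17.5, 12.9 and 16.7 in Col. AT1G11280, a receptor-like kinase of the S-locus lectin type, had 21.6, 19.2 and 17.6 TPM in double mutant libraries, 0.846, 0.866 and 1.295 in h2a.z, 19.0, 18.4 and 19.4 in h3.3kd, and 20.8, 19.6 and 19.9 in Col. In both genes, double mutant, h3.3kd and Col libraries lay close together and h2a.z stood alone. Of lectin receptor-like kinase genes near AT1G11280, AT1G11300 averaged 5.33 TPM in h2a.z and 2.81 in Col. AT1G11330 averaged 20.8 in h2a.z and 19.1 in Col, and AT1G11340 averaged 1.36 and 2.01. AT5G55940, a relative of AT5G51620, averaged 28.4 TPM in h2a.z and 30.4 in Col. The separate values of such relatives are uncertain where they share reads. AT4G38280, annotated as hemolysin-III-like, had 12.1, 14.9 and 10.6 TPM in double mutant libraries, 0.244, 0.228 and 0.239 in h2a.z, 8.90, 8.36 and 6.72 in h3.3kd, and 9.06, 6.38 and 8.55 in Col. A related gene close by, AT4G38330, was a member with a smaller reduction, at 5.01 ± 1.07 TPM in the double mutant, 2.48 ± 0.678 in h2a.z, 4.96 ± 0.292 in h3.3kd and 6.31 ± 0.380 in Col (SD, n = 3 each). Both eligible genes between them were above Col in h2a.z: HHP5 averaged 19.7 TPM in the double mutant, 21.6 in h2a.z, 15.7 in h3.3kd and 11.9 in Col, and AT4G38300 averaged 11.6, 22.6, 10.3 and 12.4 TPM in the same order. AT4G38290, a hemolysin-III-related gene beside AT4G38280, did not reach the Col level of the rule. It averaged 1.63 TPM in the double mutant, 3.80 in h2a.z, 2.06 in h3.3kd and 1.24 in Col. The separate values of the hemolysin-III-related genes are uncertain where they share reads.

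TTN10 (AT1G19080) encodes a subunit of the GINS complex, which acts with the replicative helicase. It had 7.33, 6.82 and 6.55 TPM in double mutant libraries, 0.168, 0.0393 and 0.165 in h2a.z, 5.42, 6.06 and 6.81 in h3.3kd, and 6.63, 7.22 and 7.21 in Col. A second gene with the same annotated product, AT3G55490, did not follow it and averaged 9.32 TPM in the double mutant, 7.86 in h2a.z, 8.91 in h3.3kd and 7.90 in Col. Transcript for this product thus remained in h2a.z from the second gene, within what reads shared between near-identical copies allow. Below 10% of Col were also the F-box gene AT5G56380, at 7.52 TPM in the double mutant, 0.727 in h2a.z, 9.48 in h3.3kd and 7.70 in Col, and the pentatricopeptide repeat gene AT1G12620, at 5.94, 0.388, 5.28 and 5.49 TPM in the same order.

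QQS (AT3G30720), an Arabidopsis-specific gene that affects starch content, was the nearly silent member outside the stretches. It had 13.4, 15.4 and 14.6 TPM in double mutant libraries, was listed at 0 in all h2a.z libraries, and had 2.14, 2.71 and 2.55 TPM in h3.3kd and 7.17, 4.404 and 4.63 in Col. The 4 genotypes did not overlap in any pair. QQS was low in both single mutants and above Col in the double mutant, where its d of 1.27 was the highest of the set.

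**Figure D2:**
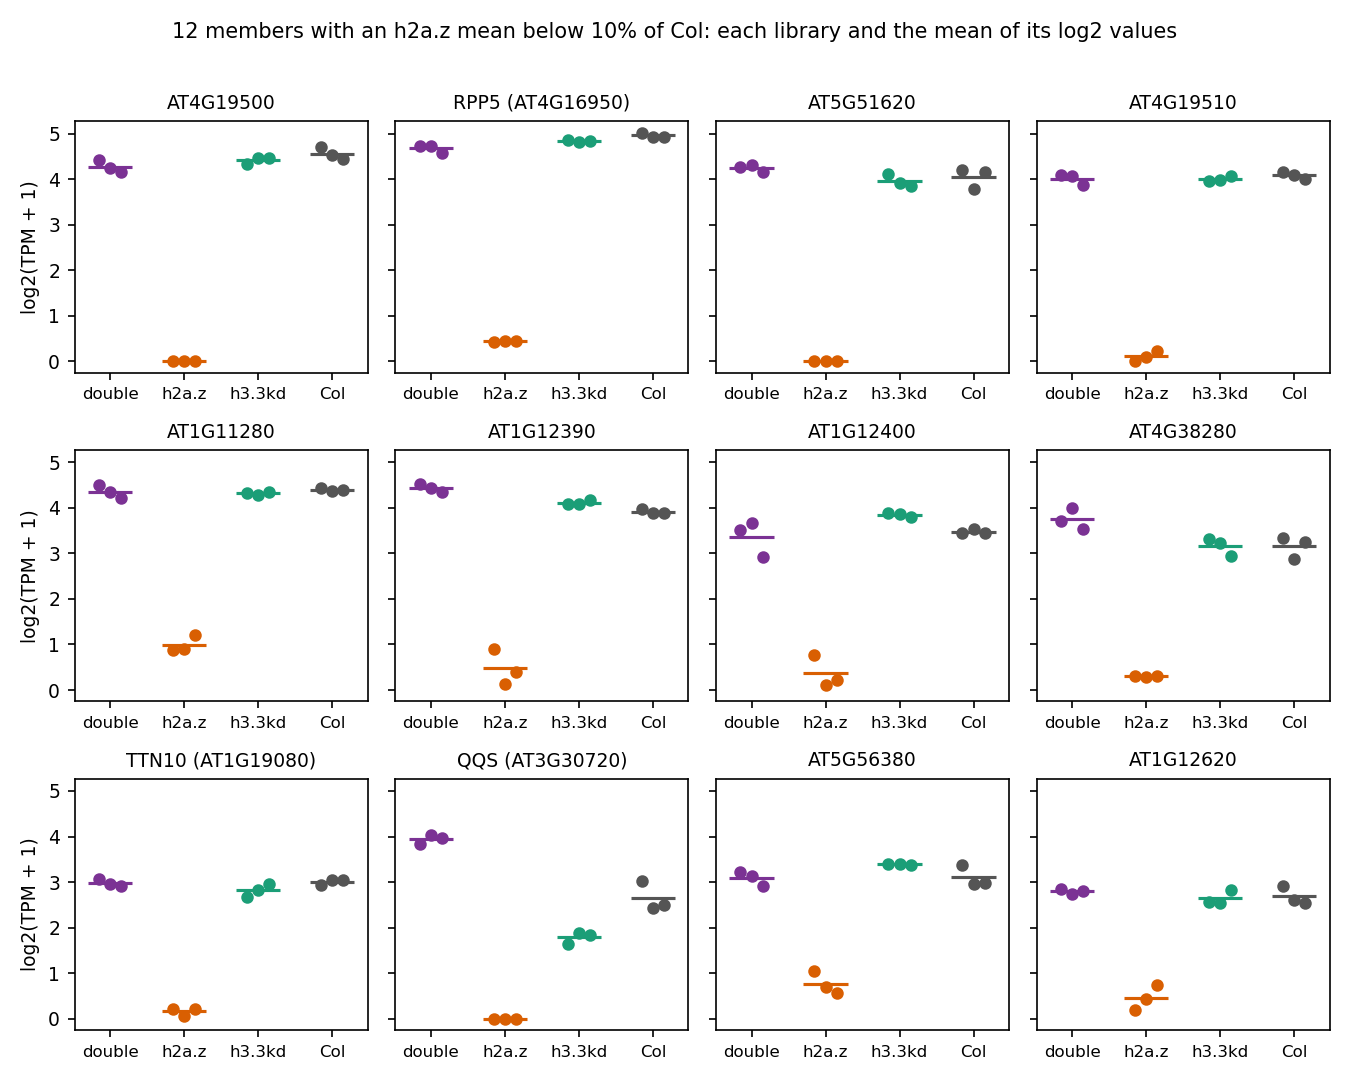
Level as log2(TPM + 1) (vertical axis) for the 12 members with an h2a.z mean below 10% of Col, with the double mutant, h2a.z, h3.3kd and Col from left to right in each panel, 1 point per library and a line at the mean of the 3 log2 values. The h2a.z points are the lowest in all 12 panels, and in the QQS panel h3.3kd also lies below Col and the double mutant above it.

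Members often had another member close by. A second member lay within 100 locus numbers of 28 members (32.6%), while 888 eligible genes (6.16%) had a member other than themselves that close. Of the 274 genes low in both lines, 102 (37.2%) had another such gene within 100 locus numbers, while 2501 eligible genes (17.4%) had a gene of that larger set so close; the sets differ in size and the difference was not tested. Chaining members at most 100 numbers apart gave 3 blocks of 3 or more, 9 pairs and 58 members alone.

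The largest block had 4 members at the start of chromosome 1. NAC003 (AT1G02220), a NAC transcription factor, had 20.3, 19.7 and 18.6 TPM in double mutant libraries, 3.32, 2.38 and 3.76 in h2a.z, 19.9, 23.0 and 22.4 in h3.3kd, and 17.9, 16.6 and 18.1 in Col. AT1G02260, annotated as an ion symporter, had 7.86, 9.37 and 8.30 TPM in double mutant libraries, 0.690, 1.13 and 0.507 in h2a.z, 10.3, 10.01 and 9.74 in h3.3kd, and 7.13, 7.75 and 7.47 in Col. These 2 were reduced most, and for both every double mutant library was above every Col library. The outer members AT1G02160 (Cox19 family) and AT1G02330 (an integrator subunit-like gene) had a d of -0.10 and 0.06 in the double mutant, and -1.19 and -1.06 in h2a.z. Between the members lie 7 other eligible genes with d in h2a.z of -1.35 to 0.54. AT1G02180, ferredoxin-like, was low at -1.35 in h2a.z but missed the set at -0.41 in the double mutant. The other 6 were metacaspase MC1 (d of 0.54 in h2a.z), the wax synthesis gene CER1 (-0.02), AT1G02270 (-0.26), the chloroplast import receptor TOC33 (0.27), AT1G02290 (-0.15) and AT1G02305 (0.19). Low genes thus alternated with genes near or above Col along the block.

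The second block joined AT1G04560, AT1G04590 and MEE4. AT1G04560, of the AWPM-19 family, had 8.53, 10.6 and 10.8 TPM in double mutant libraries, 1.03, 2.57 and 5.73 in h2a.z, 42.7, 36.8 and 29.1 in h3.3kd, and 10.8, 9.14 and 7.38 in Col. Its h3.3kd libraries stood alone above all others. AT1G04590, a pentatricopeptide repeat-like gene, and MEE4, the GRIM-19 subunit of mitochondrial complex I, had a d of 0.20 and -0.12 in the double mutant, and -0.81 and -0.86 in h2a.z. The eligible genes between them were AT1G04570, with a d of 0.28 in h2a.z, and HCAR, the reductase of hydroxymethyl chlorophyll, with -0.01.

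The third block, on chromosome 4, held IM, AT4G22285 and AT4G22310. IM (IMMUTANS) is the plastid terminal oxidase, whose loss gives variegated leaves. It had 34.8, 33.4 and 26.6 TPM in double mutant libraries, 18.3, 19.4 and 20.5 in h2a.z, 31.1, 32.7 and 27.0 in h3.3kd, and 41.1, 34.5 and 35.9 in Col. AT4G22285, a ubiquitin C-terminal hydrolase gene, and AT4G22310, of family UPF0041, had a d of -0.02 and -0.18 in the double mutant, and -1.52 and -1.28 in h2a.z. The genes between, AT4G22290 and SOBER1, had a d of 0.03 and 0.29 in h2a.z.

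**Figure D3:**
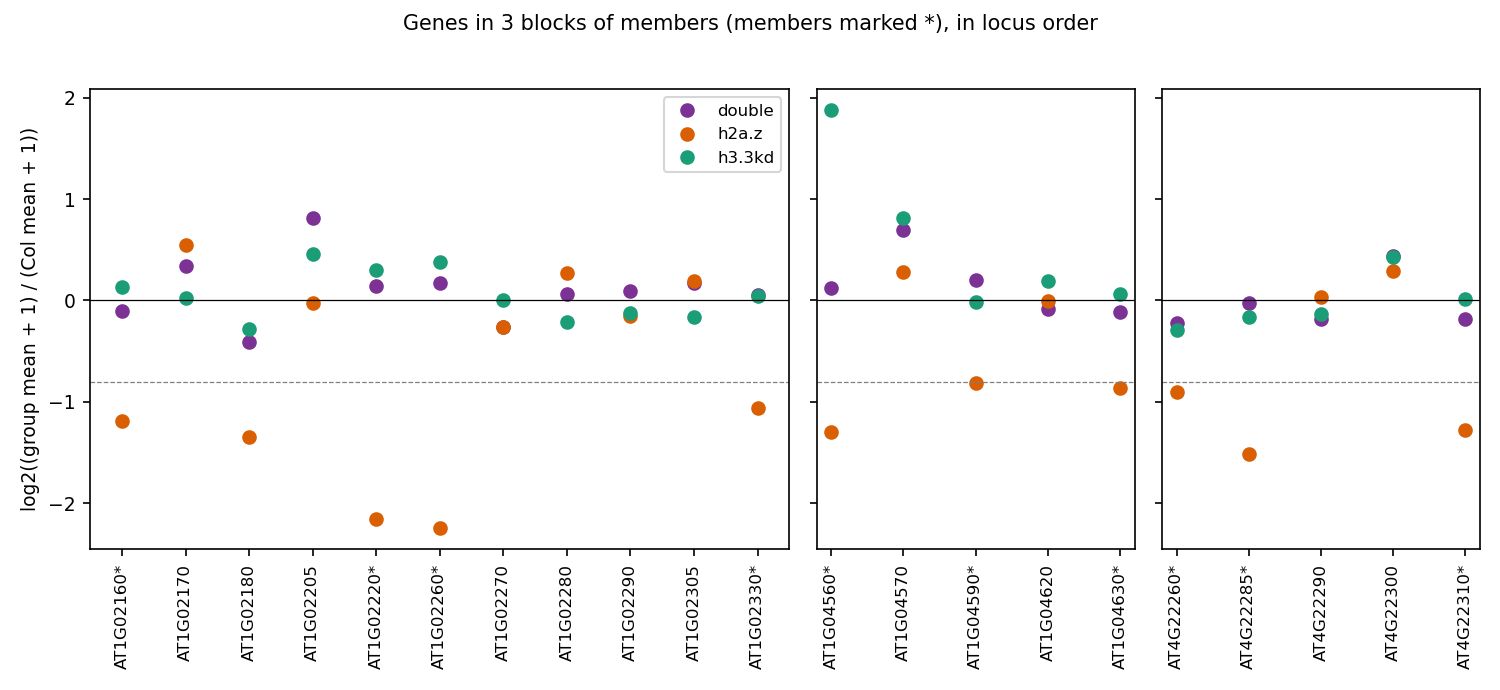
Values of d (log2 of the group mean + 1 over the Col mean + 1, vertical axis) in the double mutant, h2a.z and h3.3kd for the eligible genes of the 3 blocks in locus order (horizontal axis), with members starred and a dashed line at -0.8. In each block the starred genes dip in h2a.z, as low as -2.25 at AT1G02260, while the genes between them, other than AT1G02180 at -1.35, lie between -0.26 and 0.54.

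The members with the highest Col levels lost less than the nearly silent ones. HSP81-2 (AT5G56030), a cytosolic chaperone of the HSP90 family, had 665, 631 and 646 TPM in double mutant libraries, 213, 203 and 202 in h2a.z, 432, 451 and 442 in h3.3kd, and 646, 595 and 615 in Col. The double mutant and Col overlapped, h3.3kd lay below both and h2a.z lowest. Its close copy HSP81-3 had 705, 691 and 676 TPM in double mutant libraries, 841, 849 and 813 in h2a.z, 469, 491 and 480 in h3.3kd, and 713, 631 and 648 in Col. The copies thus differed in direction in h2a.z, where HSP81-3 was above all Col libraries; they are near-identical, and the sources used here do not say how reads were divided between them. CCR1 (AT4G39260), a glycine-rich RNA-binding protein under clock and cold control, had 259, 312 and 258 TPM in double mutant libraries, 134, 134 and 151 in h2a.z, 373, 362 and 351 in h3.3kd, and 274, 293 and 258 in Col. AT1G55960, of a lipid-binding family, had 257, 235 and 246 TPM in double mutant libraries, 164, 154 and 135 in h2a.z, 369, 353 and 366 in h3.3kd, and 295, 278 and 252 in Col. In both genes h3.3kd was highest and h2a.z lowest.

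Among chromatin and growth genes, HMGB2, a DNA-bending chromatin protein, had 238, 261 and 226 TPM in double mutant libraries, 73.5, 67.2 and 69.2 in h2a.z, 301, 293 and 278 in h3.3kd, and 146, 155 and 150 in Col. Both genotypes with reduced H3.3 were above Col and h2a.z was below. Its relative HMGB3 averaged 155 TPM in the double mutant, 108 in h2a.z, 153 in h3.3kd and 127 in Col, with h2a.z again the lowest. HMGB1 averaged 51.1 TPM in the double mutant, 58.6 in h2a.z, 58.3 in h3.3kd and 67.7 in Col, and HMGB4 averaged 45.2, 63.3, 63.3 and 69.5 TPM in the same order, so both were lowest in the double mutant. The 2 members of the SAUR family, auxin-responsive growth genes, were AT1G29430, at 17.4 ± 2.17 TPM in the double mutant, 8.18 ± 1.03 in h2a.z, 11.8 ± 2.301 in h3.3kd and 15.4 ± 0.830 in Col, and SAUR68, at 9.36 ± 2.25, 4.95 ± 1.256, 11.36 ± 1.03 and 10.9 ± 1.80 TPM in the same order (SD, n = 3 each). SAUR genes of this cluster are near copies, so their values are uncertain. SCRM2, a bHLH partner of the stomatal lineage factors, averaged 28.5 TPM in the double mutant, 14.9 in h2a.z, 34.5 in h3.3kd and 29.8 in Col.

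Redox and metal genes were also among the members, and their share of all eligible genes was not counted. The thioredoxin superfamily product was shared by 3 members of 34 eligible genes with it: AT3G62930, ATTRX4 and HCC2, the last a homologue of a cytochrome c oxidase assembly factor. AT3G62930 had 22.5, 20.8 and 14.0 TPM in double mutant libraries, 3.15, 3.68 and 1.93 in h2a.z, 23.7, 21.5 and 17.7 in h3.3kd, and 7.56, 7.03 and 7.88 in Col. FRO7, the ferric reductase of the chloroplast, had 16.5, 16.2 and 15.1 TPM in double mutant libraries, 2.86, 3.73 and 4.18 in h2a.z, 18.5, 18.0 and 18.1 in h3.3kd, and 11.9, 10.7 and 9.53 in Col. For these 2 genes the libraries of both genotypes with reduced H3.3 were all above Col. The relative of FRO7 beside it, FRO6, averaged 17.1 TPM in the double mutant, 5.97 in h2a.z, 17.6 in h3.3kd and 6.56 in Col and so differed little between h2a.z and Col. CAT1, a catalase that removes hydrogen peroxide, averaged 7.22 ± 1.3 TPM in the double mutant, 4.195 ± 0.126 in h2a.z, 11.98 ± 0.617 in h3.3kd and 8.67 ± 0.388 in Col (SD, n = 3 each). Its far more abundant relatives were not reduced in h2a.z. CAT3 averaged 309 TPM in the double mutant, 588 in h2a.z, 241 in h3.3kd and 364 in Col. CAT2 averaged 2617, 2399, 2100 and 2230 TPM in the same order.

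Surface, wall and stress genes included LTP2, a lipid transfer protein of the cuticle. It had 165, 206 and 209 TPM in double mutant libraries, 43.1, 59.8 and 59.0 in h2a.z, 341, 342 and 351 in h3.3kd, and 173, 164 and 174 in Col. Its neighbour LP1, the lipid transfer protein 1 gene, averaged 1220 TPM in the double mutant, 2329 in h2a.z, 1130 in h3.3kd and 2172 in Col and thus had the opposite order. LTP2 is also 1 of 3 members, with AT2G38570 and AT2G38680, within 300 locus numbers of the targeted gene HTA8, where 37 genes are eligible and 3 are low in both lines. Within 300 of HTR4 and of HTR5, which lie close together, were the same 2 members, of 33 and 32 eligible genes. Within 300 of HTA9, HTA11 and HTR8 there were 0, of 30, 42 and 41 eligible genes. Members are 0.597% of all eligible genes, so 0 among so few is near that share. DI21, a drought-induced gene, had 91.0, 88.4 and 86.2 TPM in double mutant libraries, 22.3, 17.9 and 22.1 in h2a.z, 43.5, 47.2 and 45.9 in h3.3kd, and 42.9, 46.9 and 55.8 in Col. Here h3.3kd and Col overlapped and the double mutant was far above both. GLP5, a germin-like protein, had 222, 227 and 228 TPM in double mutant libraries, 111, 106 and 119 in h2a.z, 178, 177 and 176 in h3.3kd, and 215, 262 and 256 in Col. GER2, which acts in GDP-fucose synthesis for the cell wall, averaged 35.1 TPM in the double mutant, 11.5 in h2a.z, 40.3 in h3.3kd and 35.6 in Col, while its relative GER1 averaged 17.3, 16.6, 15.5 and 12.3 TPM in the same order.

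Seed-associated members varied most between h2a.z libraries. OLEO2, an oil body protein of seeds and the single member on the seed marker list, had 2.58, 6.32 and 6.72 TPM in double mutant libraries, 0.265, 1.49 and 4.28 in h2a.z, 5.96, 6.07 and 4.88 in h3.3kd, and 5.98, 6.42 and 5.81 in Col. AT1G54870 had 6.95, 14.7 and 10.2 TPM in double mutant libraries, 0.451, 0.475 and 8.24 in h2a.z, 11.7, 8.05 and 7.24 in h3.3kd, and 10.8, 9.74 and 8.39 in Col. For both, h2a.z replicate 3 was the highest of its group and h2a.z overlapped the double mutant. On the scale of TPM + 1, 4 members varied more than 2-fold between h2a.z libraries: these 2, AT1G04560 and ATOEP16-4. The 12 listed seed markers summed to 139 to 400 TPM in the double mutant libraries, 21.7 to 392 in h2a.z, 108 to 139 in h3.3kd and 43.9 to 68.2 in Col, with none at 0 throughout a genotype; their part in the result was not tested.

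Other fixed lists held no member. These were salicylic acid immunity (11 eligible genes), photosynthesis (24), aliphatic glucosinolate (18), and cold and drought (11). The others were nitrate response (6), root (7), shoot epidermis with guard cell (9) and vascular markers (5). Members are 0.597% of all eligible genes, so lists this small can hold none at that share, and their absence is no result about these lists. Of 18 eligible aliphatic glucosinolate genes, 7 had a d of at most -0.8 in h2a.z and all 7 were low in the double mutant as well. The 15 root markers summed to 211 to 275 TPM in the double mutant, 267 to 300 in h2a.z, 210 to 218 in h3.3kd and 172 to 204 in Col. The 9 shoot epidermis and guard cell markers summed to 1237 to 1303, 1824 to 1920, 949 to 994 and 1272 to 1297 TPM in the same order, and the 6 vascular markers to 101 to 159, 115 to 128, 152 to 168 and 115 to 127 TPM. These sums moved between genotypes, and their part in the levels of the members was not tested. Genes annotated as uncharacterised made up 12 of the 86 members (14.0%), beside 4.88% of eligible genes.

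The h3.3kd libraries are the ones the rule did not use, so h3.3kd against Col could be tested, with the reservation that Col was part of the rule. The rule also kept only genes near or above Col in the double mutant, which shares the H3.3 knockdown. Genes lowered by the knockdown were thus less likely to be members, and the shares of higher and lower calls are partly set by this choice. On log2(TPM + 1), limma with all 12 libraries in 1 fit called 28 of the 86 members at an adjusted p below 0.05 over all genes tested. This is 32.6% of the members, beside 35.9% of the 18851 genes tested, and is thus no result about the members. The directions were 17 higher (19.8%; 9.12% of all genes) and 11 lower (12.8%; 26.7% of all genes), with 58 not called. The median difference was 0.03 for the members and -0.11 for all genes tested. The count of 11 lower fell to 5 without Col replicate 1 or h3.3kd replicate 3, to 6 without Col replicate 3 or h3.3kd replicate 2, and to 7 without Col replicate 2 or h3.3kd replicate 1. When TPM were rescaled by median ratios, which moved the median of all genes from -0.11 to 0.00, 29 members were called higher (17.2% of all genes) and 4 lower (16.6% of all genes), and the members' median was 0.14. The members thus held a larger share of higher than of lower calls under both scalings, which the choice of members can bring about. The sets also differ in level, since all genes tested needed a mean of 1 TPM and the members a Col mean of 5 TPM.

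The 5 called members with the largest rise were AT1G04560, AT3G62930, AT4G13575, LTP2 and HMGB2. AT1G04560 was higher in h3.3kd by 1.88 (SE 0.30, adjusted p = 0.000227, limma) on the log2 scale and AT3G62930 by 1.36 (SE 0.18, adjusted p = 4.22e-05, limma). The uncharacterised gene AT4G13575 had 17.6, 15.2 and 17.5 TPM in h3.3kd, against 7.32, 8.20 and 7.06 in Col, a rise of 1.06 (SE 0.18, adjusted p = 0.000355, limma). LTP2 rose by 1.01 (SE 0.11, adjusted p = 5.73e-06, limma) and HMGB2 by 0.95 (SE 0.06, adjusted p = 2.95e-08, limma). For all 5, every h3.3kd library was above every Col library. The other 12 rises, among them FRO7, CCL, CAT1, CCR1 and NAC003, ranged from 0.30 to 0.72. The NAC003 call (adjusted p = 0.048, limma) was lost when any 1 of 8 libraries was left out, including all Col and all double mutant libraries, with an adjusted p of up to 0.152.

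The 5 with the largest fall were AT1G12010, QQS, HSP81-2, GLP5 and AT1G19485. AT1G12010, of the 2-oxoglutarate-dependent oxygenases, had 2.55, 2.19 and 2.62 TPM in h3.3kd, against 6.06, 6.09 and 4.75 in Col, a difference of -0.94 (SE 0.16, adjusted p = 0.000343, limma). In the other lines it had 10.5, 11.96 and 8.60 TPM in double mutant libraries, against 0.848, 1.74 and 1.51 in h2a.z, so like QQS it was low in each single mutant and above Col in the double mutant. QQS differed by -0.86 (SE 0.15, adjusted p = 0.000388, limma), HSP81-2 by -0.48 (SE 0.05, adjusted p = 2.31e-06, limma) and GLP5 by -0.45 (SE 0.07, adjusted p = 0.000121, limma). The WD40 repeat gene AT1G19485 had 7.57, 8.73 and 9.09 TPM in h3.3kd, against 12.5, 10.98 and 10.9 in Col, a difference of -0.40 (SE 0.13, adjusted p = 0.027, limma). Its call was lost with rescaled TPM (adjusted p = 0.0756, limma) and, among others, without h3.3kd replicate 1 (adjusted p = 0.1102, limma).

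**Figure D4:**
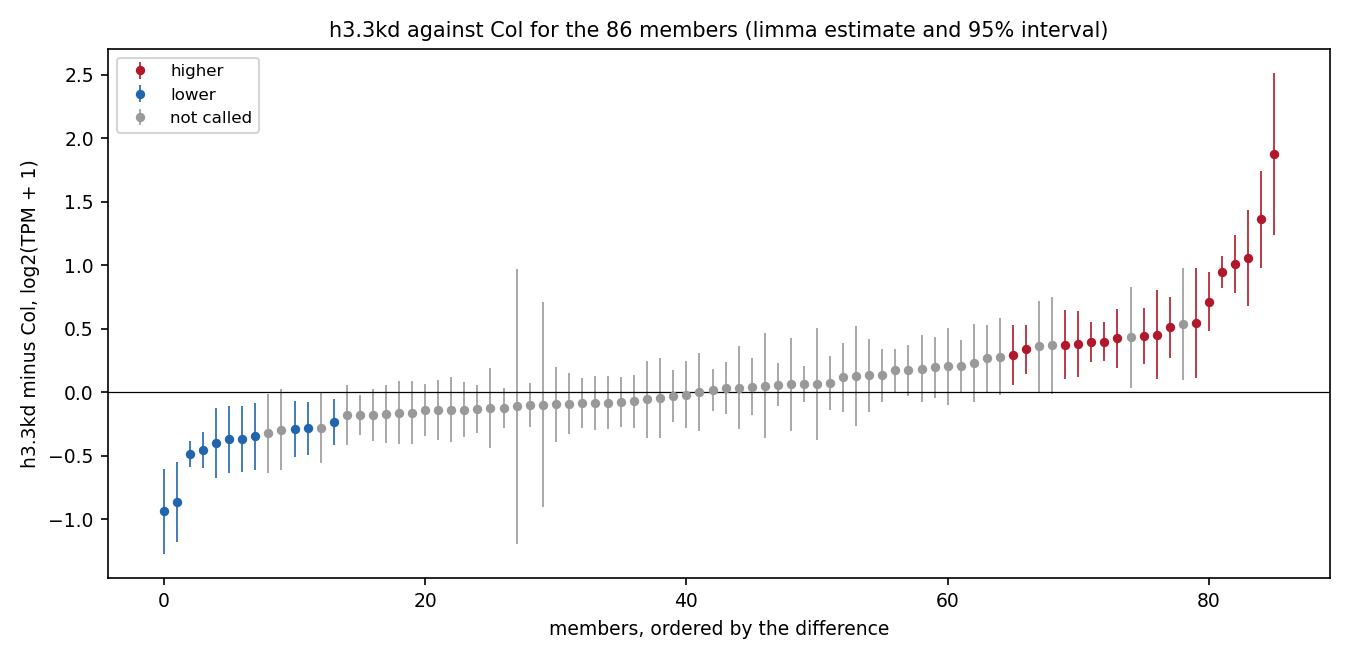
Difference of h3.3kd minus Col on log2(TPM + 1) with its 95% interval from limma (vertical axis) for the 86 members in order of the difference (horizontal axis), coloured by call. The 17 higher calls reach 1.88, the 11 lower calls reach -0.94, and 58 members were not called.

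On the scale of d, h3.3kd was at or below -0.3 for 9 members (10.5%; 23.3% of eligible genes), above 0.3 for 20 (23.3%; 6.45% of eligible genes) and between for 57. Since the double mutant shares the H3.3 knockdown, the rule can set part of these shares as well. Adding the d values of h2a.z and h3.3kd gives the level that both single changes would sum to. This sum was above -0.3 for 4 members, AT1G04560, AT3G62930, AT4G13575 and HMGB2. The double mutant lay above the sum by more than 0.3 for 81 members, within 0.3 for 4 and below by more than 0.3 for AT1G04560, where the sum was 0.58 and the double mutant 0.12. The median of the difference was 1.103. Because the rule requires a low h2a.z and a double mutant near Col, most of this difference is set by the choice of members.

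At the limit of -0.8 in h2a.z, AT2G28330 (-0.80) and AT1G04590 (-0.81) were just inside, and PAL2 (-0.799) and PHS2 (-0.795) just outside. At the limit of -0.3 in the double mutant, AT1G06630 and RPP5 (both -0.29) were just inside, and AT4G16957 and AT3G61210 (both -0.31) just outside. At the Col mean of 5 TPM, AT2G27340 (5.07) and AT1G18680 (5.22) were just inside, and ALMT1 and AT1G06260 (both 4.99) just outside.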

How the data were processed

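The authors deposited 1 table of TPM values for 23893 genes in 12 libraries. Without role or order, the submitters' processing notes list DESeq2 1.26.0, fastp 0.20.1, HTSeq 0.11.2, HISAT2 2.1.10 and the build TAIR10. The sources used here do not say how TPM were made. Per the labels' protocols, total RNA (Takara MiniBEST kit) was made into libraries with the NEBNext Ultra kit. The total count per library is not in TPM, so the depth is known only as the relative weight of 1 read. TPM share a fixed total, so abundant transcripts lower all others.

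Group means, d and locus order were computed with Python 3.11.15 and pandas 2.3.3. Symbols, products and gene order came from RefSeq for TAIR10.1, in which all 86 members matched. No coordinates or sequences are printed, since the table holds none and the builds differ by name. Differences of h3.3kd and Col were tested two-sided on log2(TPM + 1) in limma 3.58.1 (R 4.3.3), with a variance trend, over 18851 genes with mean TPM of at least 1 and Benjamini-Hochberg adjustment. Fold changes on this scale understate those of low genes. The script was tested on simulated data.

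The members and gene lists were chosen with earlier results of these data known. The text names the 10 members lowest in h2a.z, the 3 highest in Col, the 5 largest called rises and falls in h3.3kd, block members with the genes between them, members on lists, genes at the limits and the targeted genes. Other named genes, the relatives and the 4 stretches were chosen after their values were seen. Replicate numbers did not pair the libraries. Alternatives were pseudocount, low-value filter, scaling, thresholds, replicate block and leaving out each library.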

Additional observations from a re-analysis of the deposited data

How the results depend on the processing

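By the rule, the 86 members became 56 with d of at most -1 in h2a.z and 53 with a Col mean of at least 10 TPM, and leaving out 1 library at a time gave 82 to 99. Of the 28 members called in h3.3kd against Col, 17 were called with no filter on low values, of which 4 were lower. With rescaled TPM, 29 were called higher and 4 lower, their median was 0.14 and 4 instead of 9 lay at or below -0.3 in h3.3kd. Leaving out 1 library gave 18 to 30 calls, 12 to 18 higher and 5 to 12 lower, a median of -0.0172 to 0.059, and 9 to 12 members at or below -0.3 in h3.3kd. It also gave 22 to 29 members with another nearby, 53 to 61 in the 4 stretches and 10 to 14 below 10% of Col in h2a.z. Members with another nearby numbered 18 within 50 locus numbers and 18 with d of at most -1. Of the 28 calls, 15 were kept without each single library and 13 were lost without at least 1. Of the 18 pairs of libraries with the same replicate number, 0 had deviations correlated above 0.1 (-0.170 to 0.0766), so the numbers do not pair them; with the replicate block, 24 members were called, 15 higher and 9 lower, with a median of 0.03. Alternatives for the stretches, the 10% limit and the double mutant threshold were added after seeing the data. Precision is limited by 3 libraries per genotype and the shallower h2a.z replicate 1.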
